A study of Mus musculus with 16 samples.

Results

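Semaphorins are guidance signals for growing axons, and the measurements here cover their 20 genes together with the 9 plexins and 2 neuropilins that receive them, 31 of the 49671 genes counted, in single cells of mouse dorsal root ganglia (DRG). The members are the genes of these families named by symbol, a rule that uses no measured value, although the families were picked with earlier results of these data known. Cells were labelled by reporters under the promoter of parvalbumin, a calcium-binding protein of muscle-sensing neurons (proprioceptors), and 1 library held 96 wells with 1 cell each. The 10 e15.5 libraries (S1 to S10) came from PvtdTom embryos at embryonic day 15.5, a line in which the parvalbumin promoter drives tdTomato, and their cells were sorted by fluorescence. The 6 p1 libraries (S1 to S6) came from mice at postnatal day 1, labelled as Trpv1Cre; PvFlp; Ai65 and PvCre; Ai14, lines in which recombinases under the Trpv1 and parvalbumin promoters switch on tdTomato, and their cells were picked by hand. Per the study's methods, the Trpv1 mice were of 2 drivers, Trpv1Cre-Basbaum and Trpv1Cre-Hoon. By the study's account, these mice label only the proprioceptors of back muscles, and most p1 cells were picked from them. Age therefore cannot be told apart from mouse line, from the proprioceptor subset that a line labels, or from the way the cells were isolated. The labels do not tell which mouse line or segmental level any library holds.

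Class 3 semaphorins are secreted; classes 4, 5 and 6 span the membrane, and Sema7a is held to it by a lipid anchor. Plexins are the receptors that carry the signal into the cell, where it loosens the cytoskeleton and turns or stops a growth cone. Most class 3 semaphorins bind neuropilin first, with an A plexin or plexin D1 as the signalling partner, while Sema3e can bind plexin D1 without a neuropilin. Classes 4, 6 and 7 are best known as ligands of B plexins, A plexins and plexin C1, respectively. In sensory axons, Nrp1 with Plxna4 is the textbook receptor pair for repulsion by Sema3a.

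The labels call every sample proprioceptive sensory neurons, but the wells were not all of that kind. Of 1240 wells with at least 10000 UMIs (unique molecular identifiers, each 1 counted transcript), marker genes that include no member assigned 275 e15.5 wells and 283 p1 wells to proprioceptors (*Pvalb*, *Runx3*, *Etv1*, *Ntrk3*). At e15.5, 34 wells were other sensory neurons, which carried sensory neuron genes and hardly any *Pvalb* or *Runx3*, and 351 wells carried collagen transcripts without the neuronal ones and are called connective tissue here; p1 had 3 wells and 1 well of these classes. Neurons of either class with glial transcripts were kept apart (63 wells at e15.5, 62 at p1), and 148 and 20 wells met no rule. The 4 proprioceptor markers together stood at 4303 to 4884 UMIs per 1000000 (CPM) in the e15.5 proprioceptor sums of a library and at 113 to 275 in connective tissue. Genes of other sensory neurons, not used to assign wells, stood at 1669 to 2994 CPM in the class of that name and at 12.3 to 65.9 in proprioceptors. In connective tissue they stood at 290 to 703 CPM. Outside proprioceptors, the study read its e15.5 clusters as mechanoreceptors, in part proliferating, or as neurons with glial transcripts. How the classes used here match those clusters was not tested. Libraries S9 and S10 at e15.5 held 2 and 5 connective tissue wells, and p1 library S3 stood apart for its depth, with 386517 UMIs in all and 8 proprioceptor wells, against 3245039 to 9299431 UMIs in the other libraries.

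Levels are CPM of the wells of 1 class summed within 1 library, for sums of at least 3 wells, and the library is the replicate. UMIs count transcript ends, so gene length does not enter the scale. No source says that the libraries came from separate animals, so p-values measure only the spread between libraries. Fold changes and p-values are those of edgeR's quasi-likelihood test, adjusted by Benjamini and Hochberg's method over all genes tested; an adjusted p under 0.05 is called, and SE is the standard error of the log2 fold change. The 3 comparisons share the e15.5 proprioceptor sums.

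In e15.5 proprioceptors, 9 of the 31 members stood at 50 CPM or more in the median library. These were *Sema4f* (197 CPM), *Plxna2* (194), *Plxnd1* (144), *Plxna1* (106), *Sema3d* (97.6), *Sema6a* (88.8), *Sema5a* (74.6), *Sema4g* (68.8) and *Plxna3* (51.1). Both neuropilins, and *Plxna4*, were among its low members, at 6.84 (*Nrp1*), 2.89 (*Nrp2*) and 6.75 CPM (*Plxna4*). The order of neighbours in this ranking is not firm, since *Sema4f* spanned 165 to 231 CPM over libraries and *Plxna2* 126 to 228, and the ranges of *Sema3d*, *Sema6a* and *Sema5a* overlapped widely. Other e15.5 sensory neurons had 8 members at that level, led by *Plxna4* (511 CPM) and *Nrp1* (349), and connective tissue had 7, led by *Nrp2* (362), *Nrp1* (159) and *Sema3c* (143).

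**Figure D1:**
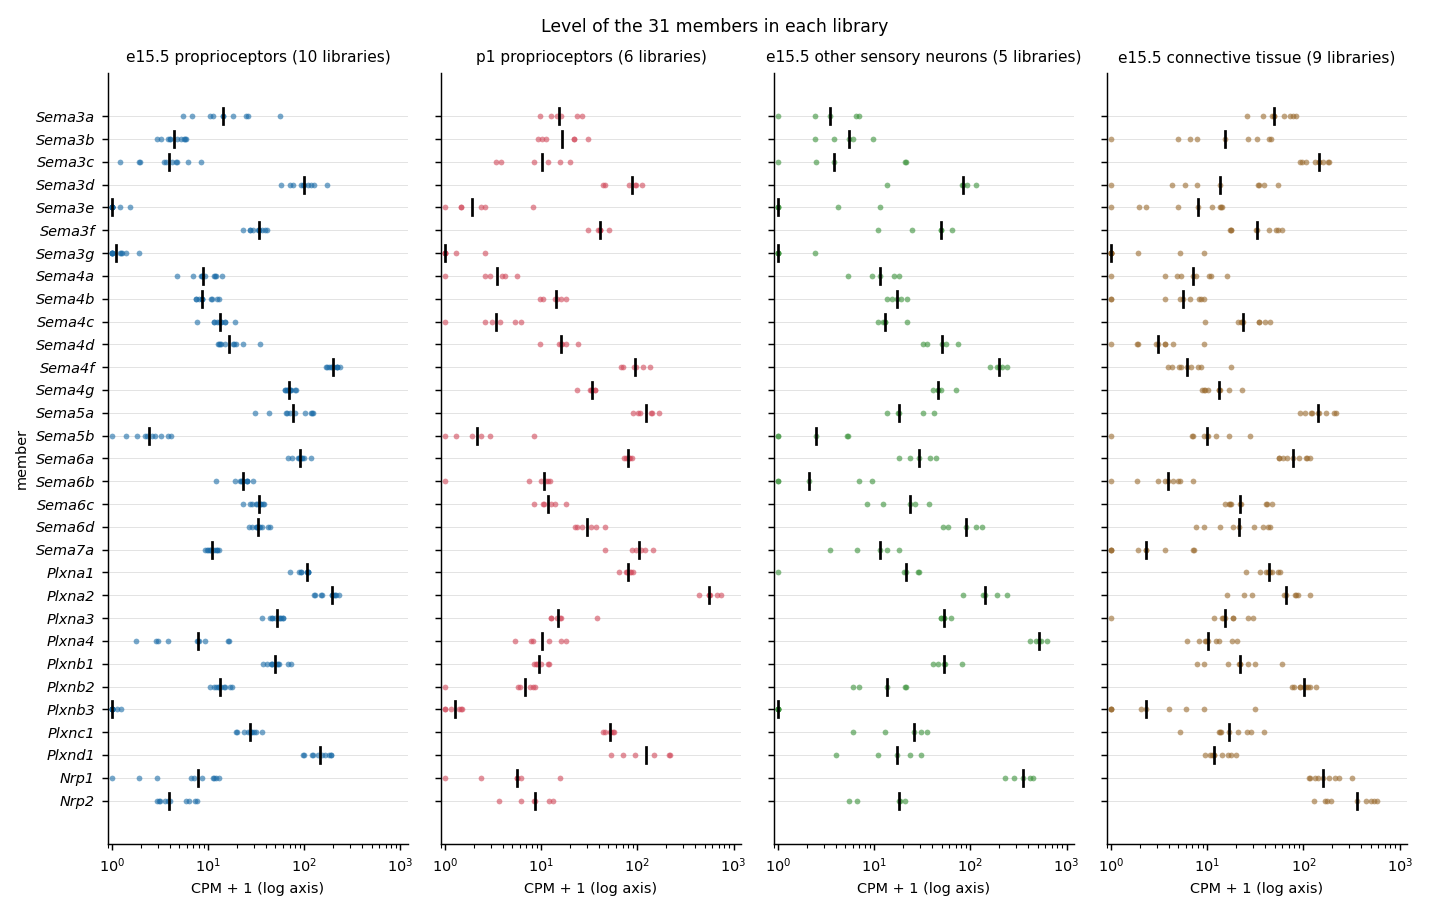
Level of each of the 31 members (rows) in CPM + 1 on a log axis, 1 panel per cell class and age, 1 point per library and a black bar at the median library. *Nrp1* and *Plxna4* lie near the left edge in proprioceptors at both ages and far to the right in other sensory neurons, where their medians were 349 and 511 CPM.

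The promoters of 2 members that results below turn on are printed: *Plxnd1*, called higher in proprioceptors than in both other classes, and *Sema7a*, which rose most by p1. *Plxna4* is not in the promoter table. Each is the 250 bases before the annotated start, 5′ to 3′ on the gene's strand, from RefSeq (GRCm38.p6), with CG dinucleotides in capitals.
Plxnd1 (chr6:115995006-115995255, minus strand): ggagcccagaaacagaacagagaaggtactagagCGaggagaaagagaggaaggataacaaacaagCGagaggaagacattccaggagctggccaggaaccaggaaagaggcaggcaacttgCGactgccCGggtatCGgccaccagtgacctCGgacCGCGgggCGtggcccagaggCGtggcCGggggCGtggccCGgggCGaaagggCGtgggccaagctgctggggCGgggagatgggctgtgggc
Sema7a (chr9:57939862-57940111, plus strand): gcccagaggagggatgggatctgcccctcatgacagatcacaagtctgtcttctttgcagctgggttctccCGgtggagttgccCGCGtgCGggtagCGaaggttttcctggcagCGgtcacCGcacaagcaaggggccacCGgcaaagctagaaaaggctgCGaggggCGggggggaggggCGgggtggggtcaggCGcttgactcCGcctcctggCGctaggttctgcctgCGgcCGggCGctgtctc
The *Plxnd1* window held 16 CG dinucleotides and 64.8% G and C, the *Sema7a* window 17 and 66.4%, against medians of 6 and 52.4% over all 32851 promoters of that table. The core motif of RUNX factors, the family of the proprioceptor marker *Runx3*, was searched as TGTGGT on both strands. Neither window held it, and 14% of all promoters did; of 37 promoters listed for 26 members, 5 did. Absence of these letters from this window says nothing about the factor.

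Between proprioceptors and other sensory neurons at e15.5, the widest differences of the members were in the receptors *Plxna4*, *Nrp1* and *Plxnd1*, while 3 of 8 plexins and 7 of 15 semaphorins tested were called. This comparison asks what the sorted proprioceptors carry that other neurons sorted with them, in the same libraries, do not. It rests on the 5 libraries with at least 3 wells of both classes (S1, S3, S5, S9 and S10, with 184 and 30 wells). The other neurons passed the same sort for the parvalbumin reporter, and by the study's account few cutaneous mechanoreceptors express parvalbumin. They are not a sample of all other neurons of the ganglia. Of 24 members tested, 4 were called higher in other sensory neurons and 7 lower. Over all 9843 genes tested, 17.4% were called (7.62% higher and 9.75% lower). The members' median log2 fold change was -0.14, and that of all genes was -0.00. *Sema3b*, *Sema3c*, *Sema3e*, *Sema3g*, *Sema5b*, *Plxnb3* and *Nrp2* had too few UMIs to be tested, and *Nrp2* stood at 17.2 CPM in the median library of other sensory neurons and at 2.56 in that of proprioceptors.

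*Plxna4* (ENSMUSG00000029765, chromosome 6, 32144268 to 32588192, GRCm38) encodes plexin A4, the signalling receptor for Sema3a in sensory axons. In other sensory neurons it stood at 626 CPM in S1, 539 in S3, 480 in S5, 511 in S9 and 417 in S10. The proprioceptors of the same libraries had 6.60, 2.85, 8.14, 6.89 and 15.4 CPM. The groups lay far apart in each of the 5 libraries, with a log2 fold change of 5.86 ± 0.28 (SE; adjusted p = 9.42e-07, edgeR). Genes on the opposite strand overlap *Plxna4*, and whether the counting used strand is not stated, so reads of both strands cannot be told apart.

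*Nrp1* (ENSMUSG00000025810, chromosome 8, 128358604 to 128503363), the neuropilin that binds Sema3a, followed the same order. Other sensory neurons had 349, 413, 229, 449 and 281 CPM in S1, S3, S5, S9 and S10, and proprioceptors had 6.16, 1.90, 5.57, 10.2 and 11. Every library was again higher in other sensory neurons (log2 fold change 5.41 ± 0.25, edgeR adjusted p = 9.42e-07). UMIs of both genes were found together in 32 of the 34 wells of other sensory neurons (94.1%) and in 27 of 275 proprioceptor wells (9.82%). Of the proprioceptor wells, 34 had *Nrp1* alone, 28 *Plxna4* alone and 186 neither. Joint shares here and below pool the wells of a class over libraries, without thinning. They were not tested against the share that the frequency of each gene alone would give.

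Other sensory neurons kept the highest shares at equal depth. With each well thinned to 10000 UMIs, 94.1% of other sensory neurons, 69.8% of connective tissue wells and 5.82% of proprioceptors had an *Nrp1* UMI (100%, 88.9% and 22.2% unthinned, at median depths of 84480.5, 28512 and 119236 UMIs). For *Plxna4* the thinned shares were 91.2%, 8.83% and 4.73% (94.1%, 19.4% and 20% unthinned). The thinned proprioceptor share of *Plxna4* lay below that of connective tissue and the unthinned shares ran the other way, so the proprioceptor share is not read as expression.

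*Plxnd1* (ENSMUSG00000030123, chromosome 6, 115954811 to 115995005), the receptor for Sema3e, ran the opposite way. Proprioceptors of S1, S3, S5, S9 and S10 had 163, 188, 150.5, 96.1 and 98.7 CPM, and other sensory neurons had 29.3, 16.1, 9.96, 2.99 and 22.7. The log2 fold change of other sensory neurons against proprioceptors was -3.20 ± 0.28 (edgeR adjusted p = 4.57e-05), lower in 5 of 5 libraries. Its ligand *Sema3e* was sparse in both classes, with 0 CPM in the median library of each. Its highest level was 0.544 CPM in proprioceptors and 10.5 (S9, 7 UMIs) in other sensory neurons, of which 3 of 34 wells had a UMI. Connective tissue had a median of 7.06 CPM of *Sema3e*.

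*Plxna1*, a plexin that pairs with neuropilins and also binds class 6 semaphorins, was lower in other sensory neurons as well, with 19.5, 20.4, 27.4, 28.4 and 0 CPM against 91.1, 86.3, 91.7, 108 and 109 (log2 fold change -2.29 ± 0.32, edgeR adjusted p = 7.30e-04). *Plxna1* and *Plxnd1* UMIs occurred together in 254 of 275 proprioceptor wells (92.4%) and in 9 of 34 wells of other sensory neurons (26.5%). Each was frequent by itself in proprioceptors, where 1 well had *Plxna1* alone, 14 *Plxnd1* alone and 6 neither. *Plxna2* (-0.41), *Plxna3* (-0.06), *Plxnb1* (-0.04), *Plxnb2* (-0.15) and *Plxnc1* (-0.40) were not called on the log2 scale, with adjusted p of 0.214 to 0.905 in edgeR's quasi-likelihood test.

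Among the ligands, *Sema6d* and *Sema4d* were the semaphorins higher in other sensory neurons. *Sema6d*, a transmembrane ligand of plexin A1, had 130, 88.1, 57.2, 50.8 and 113 CPM in S1, S3, S5, S9 and S10 against 30.8, 35.1, 42.6, 25.8 and 32.9 in proprioceptors (log2 fold change 1.33 ± 0.23, edgeR adjusted p = 0.00252). *Sema4d*, a ligand of plexin B1, had 73.9, 54.8, 49.8, 34.4 and 31.2 CPM against 12.3, 17.1, 12.6, 17.7 and 18.2 (1.59 ± 0.28, adjusted p = 0.00280 by edgeR). In neither case did the libraries of the classes overlap.

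The 5 semaphorins lower in other sensory neurons were *Sema3a*, *Sema4g*, *Sema5a*, *Sema6a* and *Sema6b*. *Sema6a*, a class 6 ligand of plexins A2 and A4, stood at 27.9, 22.6, 42.3, 37.4 and 17.0 CPM in S1, S3, S5, S9 and S10 and at 97.2, 88.2, 86.6, 93.7 and 93.1 in proprioceptors (log2 fold change -1.67 ± 0.20, edgeR adjusted p = 2.64e-04). *Sema5a*, a membrane semaphorin with thrombospondin repeats, stood at 16.7, 40.8, 12.4, 31.4 and 17.0 CPM against 120.5, 65.5, 79.7, 101 and 69.5 (-1.85 ± 0.28 on the log2 scale, edgeR adjusted p = 0.00126). The class ranges of *Sema6a* and *Sema5a* were apart, but the call for *Sema5a* was lost when classes came from clusters (-0.42, edgeR adjusted p = 0.437).

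*Sema6b* stood at 0 to 8.37 CPM in other sensory neurons against 18.0 to 24.2 in proprioceptors (log2 fold change -2.60 ± 0.49, edgeR adjusted p = 0.00460), and *Sema3a*, the secreted ligand of Nrp1 with A plexins, at 0 to 5.98 against 13.2 to 25.1 (-2.45 ± 0.40, adjusted p = 0.00205 by the same test). Neither overlapped between classes. *Sema4g* differed least, at 39.7 to 69.7 against 61.6 to 81.4 CPM (-0.54 ± 0.15, edgeR adjusted p = 0.0318), and was lost without S3, S5, S9 or S10 (adjusted p = 0.0711 to 0.110). *Sema3d*, *Sema3f*, *Sema4a*, *Sema4b*, *Sema4c*, *Sema4f*, *Sema6c* and *Sema7a* were tested and not called. *Sema4f* was high in both neuron classes, at 157.6 to 241 and 165 to 231 CPM.

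**Figure D2:**
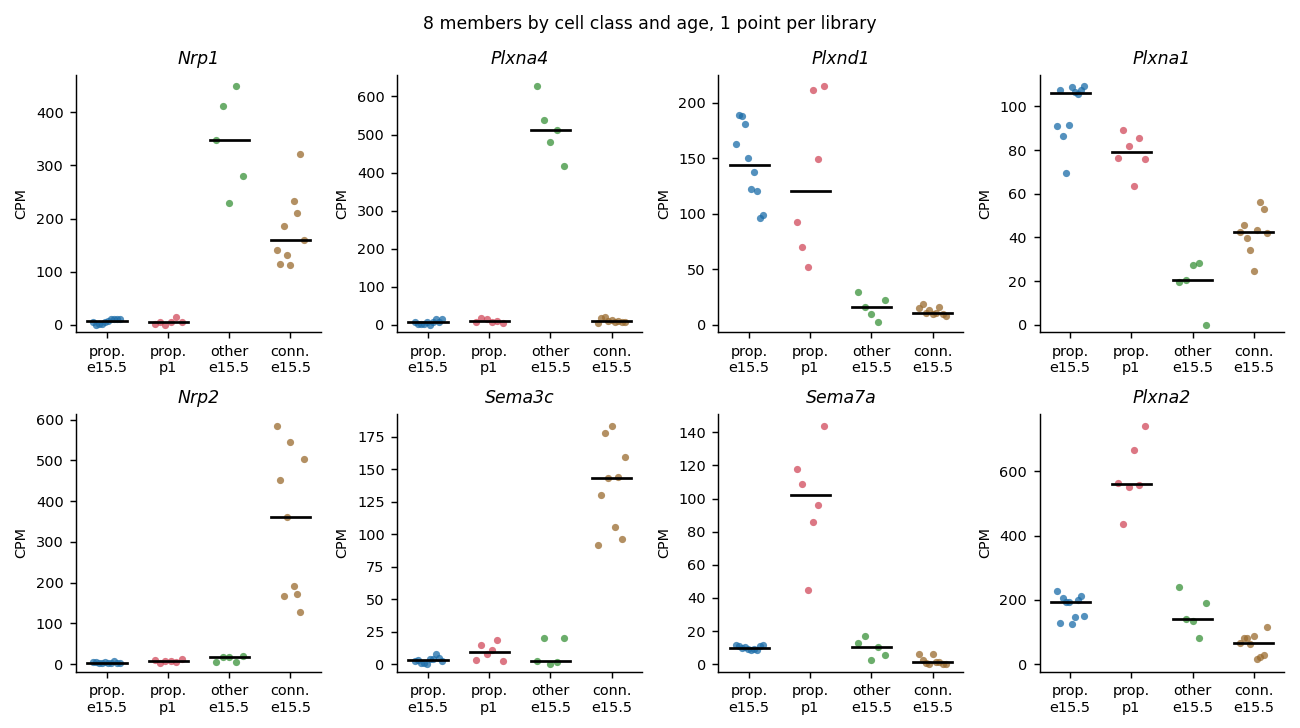
CPM of 8 members on linear axes, 1 point per library, with a black bar at the median library; prop. is proprioceptors, other is other sensory neurons and conn. is connective tissue. *Nrp1* and *Plxna4* are high in other sensory neurons, *Plxnd1* and *Plxna1* in proprioceptors, *Nrp2* and *Sema3c* in connective tissue, and *Sema7a* and *Plxna2* in p1 proprioceptors.

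Connective tissue differed from proprioceptors at e15.5 in both receptors and ligands. Cells of this class were among those sorted as proprioceptors, and 9 libraries had enough wells of both classes (349 and 224 wells, S9 left out). Of 26 members tested, 8 were called higher in connective tissue and 11 lower, each by at least 2-fold. The classes were so different that 77.6% of all 11516 genes tested were called (38.6% higher and 39% lower), and the share of members called, 73.1%, was near that background. The median log2 fold change was -0.43 over the members and -0.01 over all genes.

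Both neuropilins were far higher in connective tissue. *Nrp2* (ENSMUSG00000025969, chromosome 1, 62703285 to 62818695), the neuropilin that prefers Sema3f and Sema3c, stood at 128 to 585 CPM over the 9 libraries (median 362) and at 1.90 to 6.57 in their proprioceptors (median 3.01). Its log2 fold change was 6.45 ± 0.27 (edgeR adjusted p = 9.97e-12), and all 9 libraries were higher. *Nrp1* stood at 112 to 321 CPM (median 159) against 0 to 11.8 (median 6.16), with a log2 fold change of 4.92 ± 0.28 (edgeR adjusted p = 3.28e-10), again higher in 9 of 9. UMIs of *Nrp1* and *Nrp2* were found together in 215 of 351 connective tissue wells (61.3%), and 9 wells had neither. Singly, *Nrp1* was found in 88.9% and *Nrp2* in 69.8% of these wells, so the joint share is not read as coupling of the 2 genes.

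*Sema3c*, a secreted ligand of both neuropilins, showed the same contrast, at 91.4 to 183 CPM (median 143) in connective tissue against 0.214 to 7.47 (median 2.64) in proprioceptors. Its log2 fold change was 5.59 ± 0.34 (edgeR adjusted p = 7.01e-10), with no overlap. *Plxnb2*, the plexin that binds Sema4c, stood at 74.9 to 134 CPM against 9.36 to 16.7 (3.12 ± 0.13, edgeR adjusted p = 9.46e-12). Its ligand *Sema4c* was called higher too, at 8.37 to 43.6 against 6.64 to 18.0 CPM (1.30 ± 0.18, edgeR adjusted p = 1.02e-05).

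*Sema3a* was also higher in connective tissue, at 25.1 to 82.8 CPM (median 48.2) against 4.51 to 54.5 (median 13.2), in 8 of 9 libraries (log2 fold change 2.07 ± 0.37, edgeR adjusted p = 1.10e-04). *Sema5a* stood at 90.2 to 218 against 29.4 to 120.5 CPM and was higher in 7 of 9 (1.07 ± 0.25, edgeR adjusted p = 0.00129). *Plxna4* was called at low levels, 5.20 to 19.4 against 0.752 to 15.4 CPM (1.12 ± 0.42, adjusted p = 0.0235 by edgeR), and the call was lost without S2 (0.75, adjusted p = 0.104), without S3 (0.89, 0.0733), or with glial-transcript neurons counted in (0.18, 0.667). Glial markers of the fixed list stood at 83.7 to 522 CPM and endothelial markers at 8.31 to 83.0 in connective tissue sums, against 8.54 to 28.5 and 1.98 to 7.59 in proprioceptors. Blood markers (hemoglobin genes and *Ptprc*) stood at 5.82 to 4093 against 2.37 to 64.7 CPM. The part of these markers in the differences was not tested. With glial-transcript neurons counted with their class, *Nrp2*, *Nrp1* and *Sema3c* were still called higher (4.97, 3.99 and 4.65 on the log2 scale).

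On the side of proprioceptors, *Sema4f* and *Plxnd1* gave the widest gaps. *Sema4f* (ENSMUSG00000000627, chromosome 6, 82911885 to 82939769) stood at 165 to 231 CPM (median 195) in proprioceptors and at 2.89 to 16.7 (median 5.20) in connective tissue, a log2 fold change of -5.05 ± 0.16 (edgeR adjusted p = 8.20e-13). *Plxnd1* stood at 98.7 to 189 (median 150.5) against 8.37 to 18.7 CPM (median 10.7), a log2 fold change of -3.38 ± 0.12 (edgeR adjusted p = 1.70e-12). Neither gene overlapped between the classes.

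The other members lower in connective tissue were 5 semaphorins and 4 plexins. *Sema6b* (log2 fold change -2.72), *Sema4d* (-2.46), *Sema4g* (-2.35), *Sema7a* (-2.17) and *Sema3d* (-2.10) were lower in 9 of 9 libraries, with adjusted p of 4.63e-04 or less in edgeR's quasi-likelihood test. *Plxna2* (-1.60), *Plxna3* (-1.40) and *Plxna1* (-1.03) were lower in 9 of 9, and *Plxnb1* (-1.22), the Sema4d receptor, in all but 1 library, S10 with 5 connective tissue wells. *Sema3f*, *Sema4a*, *Sema4b*, *Sema6a*, *Sema6c*, *Sema6d* and *Plxnc1* were not called. *Sema6a* had 54.1 to 117 CPM in connective tissue and 66.2 to 116 in proprioceptors.

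**Figure D3:**
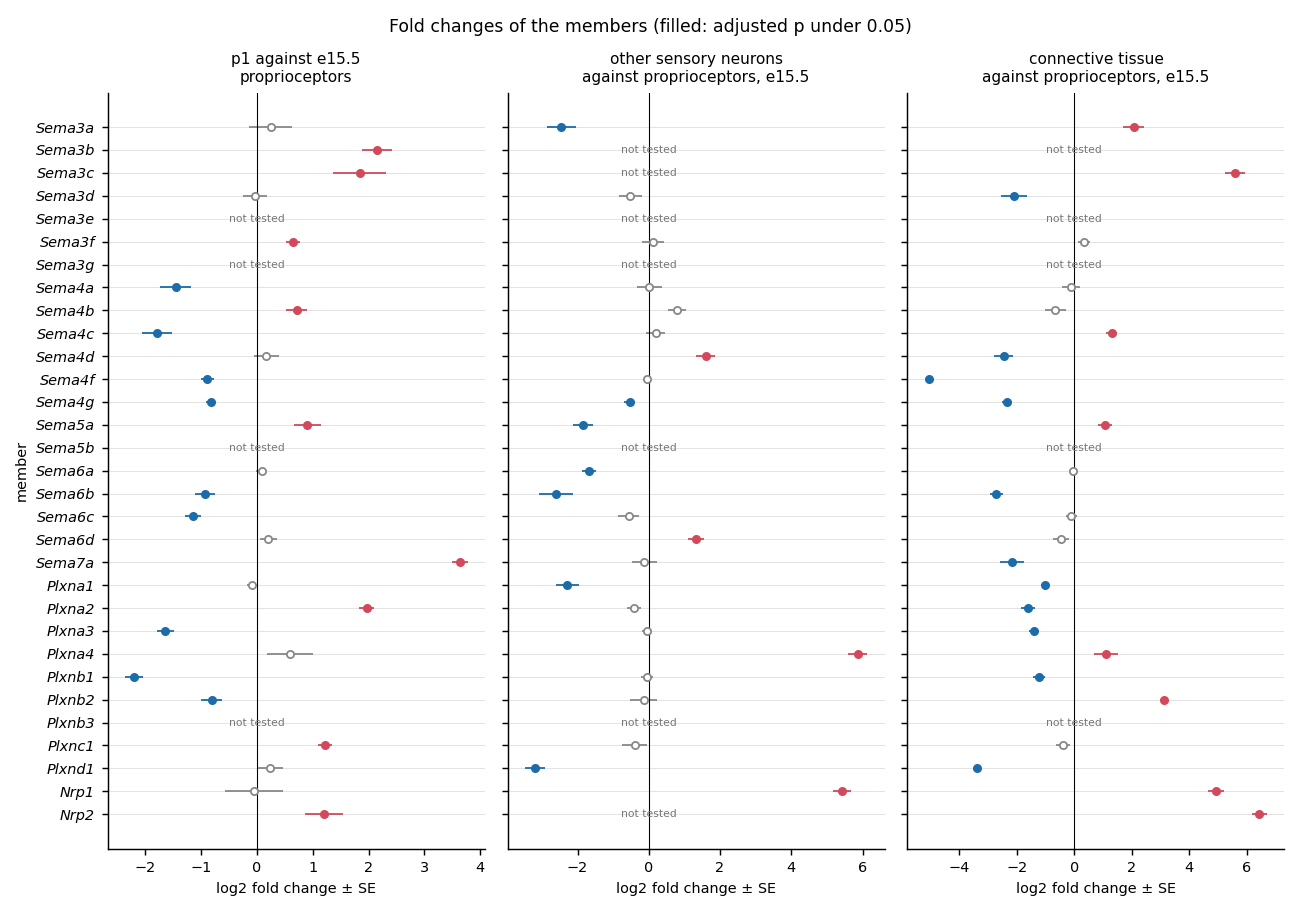
Log2 fold change with its SE for each member in the 3 comparisons, in red where called higher, in blue where called lower and open where not called. In the panel of other sensory neurons *Nrp1* and *Plxna4* lie at 5.41 and 5.86 and *Plxnd1* at -3.20, and in the panel of p1 against e15.5 *Sema7a* lies farthest out, at 3.64.

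Within connective tissue, the e15.5 libraries differed among themselves in a handful of members. *Sema3d* stood at 12.5, 52.9, 38.0, 33.3 and 32.6 CPM in S1 to S5, at 6.84, 3.28 and 4.81 in S6 to S8, and at 0 in S10. *Plxna2* stood at 65.5, 80.9, 82.1, 61.6 and 87.6 CPM in S1 to S5, at 15, 23 and 27.9 in S6 to S8, and at 117 in S10. *Sema6d* ran the other way, with 12.5, 17.6, 20.3, 6.65 and 8.15 CPM in S1 to S5 against 36.8, 29.5 and 43.3 in S6 to S8 and 41.8 in S10.

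*Sema3b* and *Sema3e*, too sparse to be tested there, were likewise lower in S6 to S8 (3.94 to 6.74 and 0.963 to 3.94 CPM) than in S1 to S5 (14.1 to 44.7 and 7.06 to 13.3). Both stood at 0 CPM in S10. *Nrp2* did not separate the libraries that way: S3 had 167 CPM, like S6 to S8 with 128 to 191, and the others 362 to 585. The proprioceptors of S6 to S8 had 69.9, 107 and 170 CPM of *Sema3d*, within or above the 55.8 to 98.9 of S1 to S5. The labels give no property that sets S6 to S8 apart. The study took equal numbers of thoracic and lumbar cells at e15.5, but no label gives the level of a library. The part of segmental level was not tested. These values were picked after they were seen and are given without a test. Other markers moved with them in the connective tissue sums. The 4 muscle markers stood at 12.4 to 21.2 CPM in S6 to S8, at 1.04 to 3.12 in S1 to S5 and at 0 in S10, and the connective tissue list at 26052 to 28779, 36321 to 43514 and 28940 CPM. Blood markers stood at 1958 and 4093 CPM in S6 and S7, at 61.6 in S8 and at 5.82 to 109 in S1 to S5. Their part in the differences of *Sema3d*, *Plxna2* and *Sema6d* was not tested.

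**Figure D4:**
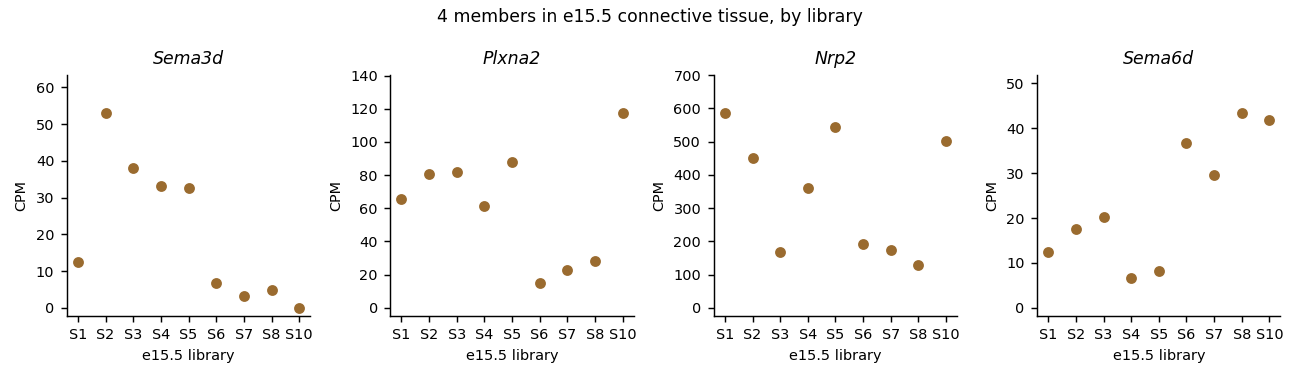
CPM of *Sema3d*, *Plxna2*, *Nrp2* and *Sema6d* in the summed connective tissue wells of each e15.5 library that had at least 3 such wells. *Sema3d* and *Plxna2* are lower in S6, S7 and S8 than in S1 to S5, and *Sema6d* is higher.

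From e15.5 to p1, proprioceptors changed in 18 of the 27 members tested, 9 higher and 9 lower. This comparison asks how the guidance genes of proprioceptors differ between the age when their axons reach muscle and the first postnatal day. Line, labelled subset and isolation are confounded with age, as given above, so a rise or fall need not be a change within the same neurons. It was as broad among all genes: 63% of 12679 were called (30.9% higher and 32.1% lower). The median log2 fold change was 0.17 over the members and -0.03 over all genes. With library totals in place of TMM scaling factors the median of all genes fell to -0.27, and higher calls made up 32.3% of all calls instead of 49.1%. The members were then 9 higher and 10 lower, and *Plxna1* was the added one (-0.33, edgeR adjusted p = 0.00796), with 66.4% of all genes called. Without the shallow p1 library S3 the members were again 9 and 9, with 8223 of 12914 genes called. Mitochondrial genes took a median of 5.13% of the UMIs of a proprioceptor well at e15.5 and 10.9% at p1, and markers of other sensory neurons summed to 12.3 to 65.9 and 89.5 to 167 CPM, without overlap. The part of either in the differences between ages was not tested.

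*Sema7a* (ENSMUSG00000038264, chromosome 9, 57940112 to 57962865), the lipid-anchored ligand of plexin C1 and integrin beta 1, rose most. Its level was 8.27 to 11.9 CPM over the 10 e15.5 libraries (median 9.83) and 118, 109, 44.7, 85.9, 96.2 and 144 CPM in p1 S1 to S6. Every p1 library lay above every e15.5 library, and the lowest was S3 (log2 fold change 3.64 ± 0.14, edgeR adjusted p = 3.40e-14). With wells thinned to 10000 UMIs, 7.27% of e15.5 and 54.4% of p1 proprioceptors had a *Sema7a* UMI (57.1% and 85.9% unthinned, at median depths of 119236 and 56998 UMIs), and 1.99% of connective tissue wells did.

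Its receptor *Plxnc1* rose as well, from 18.2 to 35.3 CPM (median 26.2) at e15.5 to 43.1 to 56.1 (median 51.1) at p1, with no overlap (log2 fold change 1.22 ± 0.12, edgeR adjusted p = 5.15e-08). UMIs of ligand and receptor were found together in 140 of 275 proprioceptor wells at e15.5 (50.9%) and in 202 of 283 at p1 (71.4%). The ligand alone was found in 17 and 41 wells, and the receptor alone in 74 and 18.

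*Plxna2* (ENSMUSG00000026640, chromosome 1, 194618218 to 194816869), a receptor of class 6 semaphorins, became the member with the highest level. It stood at 126 to 228 CPM at e15.5 (median 194) and at 564, 437, 552, 668, 559 and 743 CPM in p1 S1 to S6. The ages did not overlap (log2 fold change 1.97 ± 0.14, edgeR adjusted p = 2.31e-10), and the thinned share of wells with a UMI was 70.5% at e15.5 and 97.9% at p1 (92.4% and 100% unthinned). Among e15.5 proprioceptors of 1 library, its UMIs were spread wider than counting alone gives, with a median variance-to-mean ratio of 1.84 after thinning, next to 1.95 for *Sema3d* and 1.90 for *Sema5a*.

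The class 3 ligands called were all higher at p1. *Sema3b* and *Sema3c* were low at e15.5, and the filter on low counts can admit such genes through their p1 level. *Sema3c* was tested in 14 of the 16 fits that left out a library. The shared direction of *Sema3b* and *Sema3c* may thus be partly set by the filter and is not read as a property of the class. *Sema3b* went from 1.90 to 4.93 CPM (median 3.35) to 8.34 to 29.8 (median 15.5), with no overlap (log2 fold change 2.15 ± 0.27, edgeR adjusted p = 7.54e-07). *Sema3c* went from 0.214 to 7.47 CPM to 2.39 to 18.8, and the ages overlapped (1.84 ± 0.48, edgeR adjusted p = 0.00235). *Sema3f*, a ligand of Nrp2, rose by less than 2-fold, from a median of 32.3 to 39.6 CPM (0.64 ± 0.13, edgeR adjusted p = 1.75e-04).

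*Nrp2* itself was called higher at very low levels, 1.90 to 6.57 CPM at e15.5 and 2.60 to 12.4 at p1 (log2 fold change 1.20 ± 0.34, edgeR adjusted p = 0.00431). That call ended, and its sign turned, when neurons with glial transcripts were counted with their class (-0.12, adjusted p = 0.732 in edgeR). Glial markers summed to 8.54 to 28.5 CPM in e15.5 and 22.4 to 102 in p1 proprioceptors. The glial-transcript neurons had medians of 42.3 and 12.6 CPM of *Nrp2* at e15.5 and p1, and of 21.7 and 37.5 CPM of *Sema3c*, above the proprioceptor medians of both genes. *Sema3b* and *Sema3c* were still called higher with those wells counted in (1.58 and 1.71 on the log2 scale, edgeR adjusted p = 1.99e-05 and 5.19e-05). After thinning at e15.5, 23.8% of glial-transcript neurons and 3.64% of proprioceptors had a *Sema3b* UMI. Counting these wells in at both ages does not measure glial transcripts within proprioceptor wells. Their part in the rise of either gene was not tested.

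Plexins A3, B1 and B2 fell. *Plxnb1* (ENSMUSG00000053646, chromosome 9, 109095389 to 109119917) went from 36.1 to 70.9 CPM (median 48.2) to 7.45 to 11 (median 8.42), the largest drop of a member (log2 fold change -2.20 ± 0.16, edgeR adjusted p = 5.35e-10). *Plxna3*, the plexin that pairs with Nrp2 for Sema3f, went from a median of 51.1 to 14.0 CPM (-1.64 ± 0.15, edgeR adjusted p = 1.36e-08), and of the p1 libraries the shallow S3, with 5 UMIs and 37.3 CPM, overlapped the e15.5 range. *Plxnb2* went from a median of 12.2 to 5.79 CPM (-0.81 ± 0.18, edgeR adjusted p = 6.89e-04).

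The 6 semaphorins that fell belong to classes 4 and 6. *Sema4f*, the highest semaphorin at e15.5, went from 165 to 231 CPM (median 197) to 66.0 to 134 (median 93.2), without overlap (log2 fold change -0.89 ± 0.12, edgeR adjusted p = 1.78e-06). *Sema4g* went from 61.6 to 81.4 CPM to 22.4 to 35.1, also without overlap (-0.82 ± 0.09, edgeR adjusted p = 1.26e-07). *Sema4c* (-1.79), *Sema4a* (-1.46), *Sema6c* (-1.15) and *Sema6b* (-0.94) stood at medians of 2.40 to 10.6 CPM at p1, with adjusted p of 1.34e-04 or less by edgeR. In class 4, *Sema4b* alone was called higher (0.71 ± 0.19, edgeR adjusted p = 0.00335), and in class 5 *Sema5a* was (0.90 ± 0.24, edgeR adjusted p = 0.00294), from 29.4 to 120.5 CPM to 88.1 to 168.

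The receptors called between proprioceptors and other sensory neurons at e15.5 were not called between ages. *Plxnd1* stood at 96.1 to 189 CPM at e15.5 and at 92.5, 70.1, 52.2, 212, 149 and 215 in p1 S1 to S6 (log2 fold change 0.23 ± 0.23, edgeR adjusted p = 0.406). At p1, S4 to S6 thus lay above S1 to S3, and no label separates them. *Plxna1* stood at 69.3 to 109 and 63.8 to 89.2 CPM (-0.08 ± 0.10, adjusted p = 0.478 by edgeR). *Nrp1*, at 0 to 11.8 and 0 to 14.8 CPM, and *Plxna4*, at 0.752 to 15.4 and 4.39 to 17.0, stood low at both ages (-0.06 ± 0.52 and 0.59 ± 0.41 on the log2 scale, edgeR adjusted p = 0.933 and 0.215). With classes taken from clusters, both were called higher at p1 (*Nrp1* 1.67, *Plxna4* 1.91). No p1 cluster was then assigned to other sensory neurons, and 72.9% to 100% of the wells in a p1 proprioceptor cluster were proprioceptors by markers. The part of the remaining wells in these calls was not tested. *Sema3a*, *Sema3d*, *Sema4d*, *Sema6a* and *Sema6d* were not called, and *Sema3e*, *Sema3g*, *Sema5b* and *Plxnb3*, with medians of 1.44 CPM or less at both ages, were not tested.

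Beyond the families, a list of 40 partners and effectors of semaphorin signalling was counted in the same fits. Between ages, 10 of 30 tested were higher at p1 and 11 lower, against the 63% of all genes called. *Mical2*, of a family of enzymes that oxidise actin, was the largest (log2 fold change 3.97 ± 0.32), and *Chl1*, a cell adhesion partner of neuropilin, followed (1.93 ± 0.48), with *Vegfc* (-1.71), *Farp1* (-1.37), *Dpysl4* (-1.37) and *Crmp1* (-1.05) the largest decreases. Among other sensory neurons, 5 of 28 tested were higher than in proprioceptors and 2 lower, against 17.4% of all genes. *Chl1* led there too (6.25 ± 0.38, edgeR adjusted p = 3.72e-06), ahead of *Nrcam* (1.35), *Mical1* (1.23), *Dpysl3* (0.58) and *Crmp1* (0.37), and *Farp1* (-0.88) and *Cdk5* (-0.46) were lower. In connective tissue 7 of 27 tested were higher and 17 lower (88.9% called, against 77.6% of all genes), with the neuronal adhesion and collapsin response genes *Dpysl5* (-4.64), *L1cam* (-4.42), *Cntn2* (-4.32) and *Crmp1* (-3.84) lowest and the small GTPase *Rras* (2.94) highest.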

How the data were processed

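Single cells were isolated by the authors from thoracic and lumbar DRG, processed with CEL-Seq2 and counted with scruff; the deposited values are raw UMI counts per gene and well, 960 wells at e15.5 and 576 at p1, with no filter. The submitters' processing notes name mm10 and GRCm38; no source used here states the annotation or the strand setting. Symbols and places are from GENCODE (GRCm38). IDs without a symbol held 0.0392% of the UMIs, 0 columns were left unused, and no well repeated the counts of another. 17 members overlap another annotated gene, 11 of them one on the opposite strand.

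The members and lists were chosen with earlier results of these data known. Marker genes were fixed with them, and the class limits were set after seeing the data. A neuron had at least 100 CPM of *Isl1* and *Avil*, 1000 CPM of the 5 sensory neuron markers and under 2000 CPM of 3 collagens. A proprioceptor also had at least 200 CPM of *Pvalb* and *Runx3* and 500 CPM of *Etv1* and *Ntrk3*, and an other sensory neuron under 100 CPM of the former pair. Connective tissue had under 100 CPM of *Isl1* and *Avil* and at least 5000 CPM of the collagens. Neurons with at least 300 CPM of 4 glial markers, among them *Apoe*, *Fabp7* and *Sox10*, were kept apart; the other marker is not reported here. 18 wells lay between the proprioceptor and other neuron limits, and doublets were not called beyond leaving wells that met both neuron and collagen limits unclassified.

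Counts were summed per library and class (at least 3 wells, 119489 to 7347912 UMIs per sum) and tested by edgeR's quasi-likelihood method (version 4.0.16) after filterByExpr and TMM, with p-values adjusted by Benjamini-Hochberg over all genes tested. SE is the log2 fold change divided by the root of F. Classes of 1 library were blocked by library, since they share a preparation; between ages, equal numbers name different libraries, and no block was used. On simulated data with 200 genes changed 4-fold the fits recovered 97% (12493 genes, ages), 95% (11360, connective tissue) and 94% (9649, other neurons). Of the genes called there, 4.43%, 5.47% and 6.47% were false. Far fewer genes were changed than were called in the data, and no library effect was simulated. These rates need not hold for the data. All members were to be described, with values by library where called at 2-fold or at 50 CPM or more. Thinning drew 10000 UMIs per well. Clusters made without the members (scran, version 1.30.0) and DESeq2 (version 1.42.0) served as alternatives, with R (version 4.3.3), Python (version 3.11.15) and Matplotlib (version 3.10.9). Intervals for shares were not computed; the numbers of wells limit them.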

Additional observations from a re-analysis of the deposited data

Results flagged for a closer look

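A library was set aside for a closer look where it lay far from the others of its class by Dixon's criterion, in 107 groups of 4 to 10 libraries with at least 30 UMIs of a member. For normally distributed values chance alone gives about 1 in 20 such groups, and 13 were found. CPM from sums of unlike size, some with few UMIs, need not follow that rate, so the 13 are not read as an excess. In e15.5 proprioceptors, *Sema3a* stood at 54.5 CPM in S4 (59 UMIs, 7 wells) and at 4.51 to 25.1 in the other libraries, and *Sema4d* at 33.8 CPM in S6 against 11.5 to 22.2. In p1 proprioceptors, *Sema3e*, the Plxnd1 ligand, stood at 7.14 CPM in S2 (44 UMIs, 69 wells) against 0 to 1.60, and *Nrp1* at 14.8 CPM in S5 (55 UMIs, 56 wells) against 0 to 5.18. The shallow p1 library S3, with 8 wells, had 37.3 CPM of *Plxna3* (5 UMIs), 22.4 of *Sema4g* (3 UMIs) and 0 of *Plxnb2*, against 11.5 to 15.2, 31.2 to 35.1 and 4.79 to 7.52 elsewhere. In connective tissue, *Plxnb3* stood at 30.6 CPM in S5 (15 UMIs) against 0 to 8.30, and *Sema4d* at 8.31 in S1 (8 UMIs) against 0 to 3.42. In S10, with 5 connective tissue wells, *Plxnb1* stood at 58.6 CPM (7 UMIs) against 6.84 to 30.1 and *Sema4f* at 16.7 (2 UMIs) against 2.89 to 7.49. In other sensory neurons, S1 had 20.9 CPM of *Sema4c* and 69.7 of *Sema4g*, against 9.96 to 12.0 and 39.7 to 47.8.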

How the results depend on the processing

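Thinning every well to 10000 UMIs left fewer members to test and moved the counts most. Between ages 5 were then higher and 4 lower of 14 tested, in connective tissue 5 and 6 of 13, and in other sensory neurons 2 and 0 of 4. Of all genes tested after thinning, 3690 of 6718, 4380 of 6094 and 247 of 1749 were called, in the same order. Leaving out each library in turn gave 8 to 9 higher and 9 lower between ages, 7 to 8 and 11 to 12 in connective tissue, and 4 and 6 to 7 in other sensory neurons. Over all genes, these fits called from 7579 of 12802 to 8223 of 12914 between ages. In connective tissue they called from 8565 of 11264 to 9154 of 11684, and in other sensory neurons from 1183 of 10880 to 1466 of 9926. Library totals alone and the restriction to S1 to S6 were chosen after seeing the data.

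Numbers S1 to S6 of the 2 ages did not pair the samples (same-number r of -0.32 to 0.19). With the replicate block 8 members were higher and 9 lower of 26 tested. *Nrp2* was no longer called (0.82, edgeR adjusted p = 0.123) and *Plxna4* was (1.54, edgeR adjusted p = 0.00974). Without a block in the same libraries *Plxna4* was also called (1.40, edgeR adjusted p = 0.0104). Over all genes, 6122 of 12141 were called with the block and 6790 of 12141 without it. Without the library block, 7 and 12 members were called in connective tissue and 5 and 7 in other sensory neurons. Over all genes, 9096 of 11516 and 1746 of 9843 were then called. *Plxna4* was lost in connective tissue (0.65, edgeR adjusted p = 0.140). *Nrp2* between ages was the one called member to change sign under any alternative (-0.12, glial-transcript neurons counted in). *Sema4g* in other sensory neurons was lost under DESeq2, sums of 5 wells, the study's quality filter and 20000 UMIs (adjusted p = 0.101 to 0.212). Sums of at least 10 wells could not be fitted for other sensory neurons. Few wells limit that class, and 3 UMIs in its sums are worth several CPM.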

Other observations

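Neurons with glial transcripts, left out of the comparisons, had several members at higher medians than proprioceptors did. *Sema3g*, a secreted ligand of Nrp2, stood at a median of 5.33 CPM at e15.5 and 11.2 at p1 in these wells, against 0.107 and 0 in proprioceptors, and its UMIs were found in 28.6% and 41.9% of them against 2.18% and 2.47%. *Plxnb3* stood at 10.1 CPM at e15.5 and 1.89 at p1, against 0 and 0.274. At e15.5 these wells also had 65.4 CPM of *Nrp1*, 67.5 of *Plxna4* and 97.9 of *Sema6d*, members called higher in other sensory neurons. Not all 63 of these e15.5 wells were proprioceptors, since counting them with their class raised the proprioceptor wells from 275 to 330. Over single glial-transcript wells, *Plxna4* had a median of 12.2 CPM and a 90th percentile of 404. The part of this mixture in the medians was not tested. CPM values are medians over 8 libraries at e15.5 and 6 at p1, and shares pool all wells of a class without thinning. None was tested.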
